A study of Mus musculus with 6 samples.

Results

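The genes described here are the fibroblast growth factors (FGF), platelet-derived growth factors (PDGF), vascular endothelial growth factors (VEGF), angiopoietins and hepatocyte growth factor, with the FGF, PDGF and HGF receptors and the angiopoietin-like proteins. They were picked by name. The rule took every gene whose symbol starts with Fgf or Fgfr and a digit, with Pdgf, Vegf or Angpt, or is Hgf or Met. This gave 51 of the 29752 genes listed. Among them are Fgfr1op, Fgfr1op2 and Fgf2os, which match by name only. All 51 are called growth factor genes below, with the receptors and these name matches included in every count. Their transcripts were measured by RNA sequencing in whole aorta, in 3 libraries of PALMD+/- mice, called heterozygote below, and 3 libraries of wild-type mice. All mice were of the C57BL/6 strain and 15 weeks old, and both groups had received normal diet over the last 7 weeks, starting at 8 weeks of age. Palmd encodes palmdelphin, a member of the paralemmin family; the labels do not say which stretch of the gene is altered, and whether each library stands for its own mouse is not given, so all p-values here reflect the spread among these libraries, which may be technical. Levels are given in FPKM, reads scaled by the exon length of the gene and the total of the library, a scale on which genes of different length can be compared.

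As background, these families are mostly secreted ligands that bind and pair receptor tyrosine kinases on the cell surface. In the vessel wall, PDGF-B from endothelium recruits smooth muscle cells and pericytes through PDGFR-beta, VEGF-A acts on endothelium through the receptor encoded by Kdr, VEGF-C acts on lymphatic endothelium through Flt4, and angiopoietin 1 keeps endothelium quiescent through the receptor TIE2, encoded by Tek, which angiopoietin 2 can block. FGFs act through 4 receptors, with heparan sulphate or a klotho protein as partner, and the cytosolic FGF homologous factors bind ion channels and are not secreted. The angiopoietin-like proteins do not bind TIE2, though most of them share a domain with the angiopoietins. Several of them hold back lipoprotein lipase, the enzyme that releases fatty acids from circulating lipoproteins.

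The values rest on 17283900 to 18371939 reads per library, as recovered from the steps of the deposited values, so that 1 read on a transcript of 2 kb was worth 0.0272 to 0.0289 FPKM. Palmd itself had 5.31, 7.19 and 6.21 FPKM in replicates 1 to 3 of the heterozygote, against 5.49, 7.88 and 10.1 FPKM in wild-type replicates 1 to 3. These values overlap, so the level of the transcript does not check the genotype. Heterozygote replicate 2 was unlike the rest. The mean correlation of this library with the others across genes was 0.930, against 0.960 to 0.971 for each of the rest, and it was the lowest or highest library for 60.7% of all tested genes, where the other 5 libraries were at 20.6% to 37.0%. Among 8 white adipocyte markers (Adipoq, Plin1 and others, all detected) the summed level was 1400.3, 4954.0 and 1963.4 FPKM in heterozygote libraries, against 1631.4, 2551.9 and 3750.1 FPKM in wild-type libraries. The 8 endothelial markers, among them Pecam1 and Cdh5, summed to 740.8, 249.4 and 743.5 FPKM in heterozygote libraries, against 787.8, 684.4 and 700.8 FPKM in wild-type libraries. Pecam1 weighed most in the fall, at 72.0 FPKM in heterozygote replicate 2 and 352.4 to 424.2 FPKM in the other 5 libraries. Emcn and Cldn5 did not follow, at 5.43 and 45.0 FPKM there, against 4.25 to 5.63 and 40.4 to 98.2 FPKM elsewhere. The remaining endothelial markers were lowest in that library. Smooth muscle markers (7 genes, with Acta2 and Myh11) summed to 10007.3, 4760.6 and 10258.7 FPKM in heterozygote libraries, against 10003.4, 8827.7 and 7102.1 FPKM in wild-type libraries. Acta2, at 3701.1 to 8367.5 FPKM, made up most of this sum, and Myh11 was at 612.0 to 1166.2 FPKM. Both markers of the arterial wall were thus present throughout, while Tagln, another of the 7, was listed at 2.12 to 4.29 FPKM. In the annotation the Tagln gene overlaps Pcsk7 on the opposite strand. Whether the low Tagln value reflects its transcript level was not tested. Schwann cell markers (5 genes) were at 60.2 FPKM in heterozygote replicate 2 and at 7.55 to 14.9 FPKM in the other 5 libraries. In bulk tissue, fewer cells of a type and less RNA per cell cannot be told apart. The part these tissue differences play in the results was not tested, and results that rest on heterozygote replicate 2 are given with and without it.

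No growth factor gene passed the test. Of the 51 genes, 33 reached 1 FPKM in at least 3 libraries and were tested, and 0 had an adjusted p under 0.05 in limma's test with Benjamini-Hochberg adjustment over 12620 genes; the background was the same, with 0 genes called (0% of those tested) and a smallest adjusted p of 0.231. Fold changes are differences in log2(FPKM + 1), heterozygote minus wild type, and on this scale 16 of the 33 were positive and 17 negative, between -1.22 for Fgfr3 and 0.62 for Angptl8. The median over the 33 was -0.00, beside 0.01 over all tested genes. An unadjusted p under 0.05 was reached by 2 of the 33 genes (6.06%), Fgf14 and Fgf18, beside 6.50% of all tested genes. Among the 33 genes, 2 (Fgf14 and Angptl2) had all 3 heterozygote values above all 3 wild-type values, 6.06% beside a background of 7.80%. Another 3 (Fgfr3, Fgf18 and Angptl7) had all heterozygote values below all wild-type values, 9.09% beside a background of 5.12%. Together these 5 genes made up 15.2% of the 33, where 12.9% of all tested genes had groups that did not overlap. These shares are near their backgrounds.

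**Figure D1:**
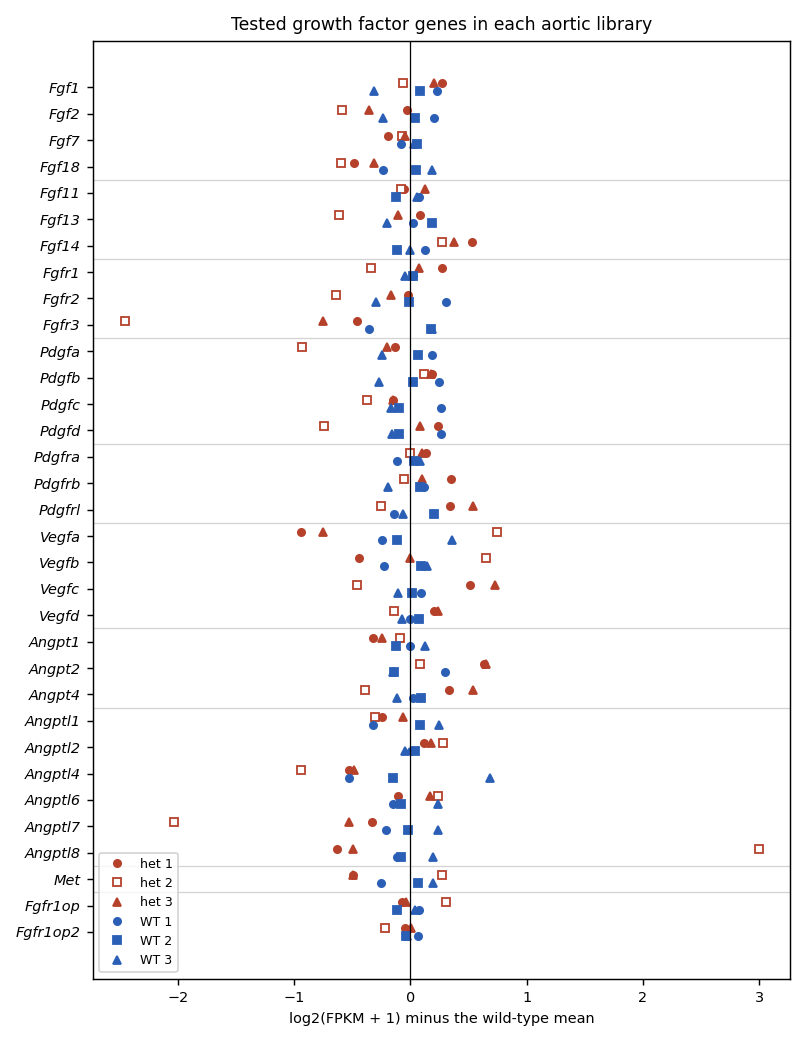
Level of each of the 33 tested growth factor genes (rows, grouped by role) in each library, as log2(FPKM + 1) minus the mean of the 3 wild-type (WT) libraries. The last rows, Fgfr1op and Fgfr1op2, match by name only. Red symbols are heterozygote (het) libraries, with replicate 2 open, and blue symbols are wild-type libraries. Open squares are the lowest of the 6 libraries in 16 rows and the highest in 6.

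Heterozygote replicate 2 was the lowest of the 6 libraries for 16 of the 33 genes and the highest for 6, which is 66.7% of them, beside 60.7% of all tested genes. Without that library the number of growth factor genes with an unadjusted p under 0.05 was 12 of 33 (36.4%), 6 higher and 6 lower in heterozygotes, beside 14.0% of all tested genes. The 6 higher genes were Vegfc, Angpt2, Angpt4, Fgf14, Pdgfrl and Vegfd, and the 6 lower ones were Vegfa, Angptl8, Met, Fgfr3, Angptl7 and Fgf18. Without that library 9 of the 33 genes lay above wild type without overlap, beside 20.7% of all tested genes, and 7 lay below, beside 12.4%. None of the 33 passed the adjusted threshold in that comparison either, the smallest adjusted p being 0.230 for Vegfc in limma's test, and 0 of all tested genes passed. When all 6 libraries were kept and limma's array quality weights were used, 232 genes were called (1.84%), and 1 of them, Angpt2, was among the growth factor genes. An unadjusted p under 0.05 was then reached by 13 of the 33 genes (39.4%), beside 26.4% of all tested genes. The weights were 0.668, 0.17 and 3.59 for heterozygote replicates 1 to 3 and 0.76, 3.11 and 1.04 for wild-type replicates 1 to 3, so these calls rest mostly on 1 library of each group.

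**Figure D2:**
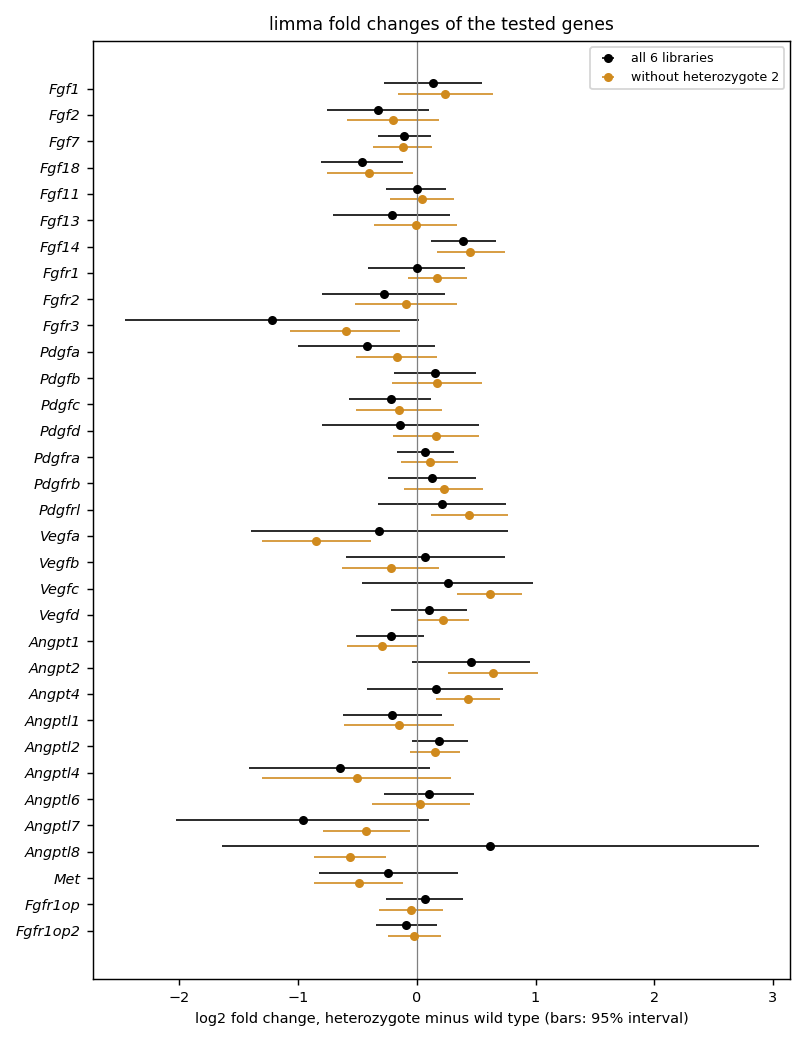
Log2 fold change on the log2(FPKM + 1) scale, heterozygote minus wild type, of the 33 tested genes with its 95% interval from limma; black points use all 6 libraries and orange points leave out heterozygote replicate 2. The intervals of Fgfr3, Angptl7, Vegfa, Vegfc and Angptl8 are much narrower without that library, and the point of Angptl8 lies on the other side of 0.

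The stretches just upstream of the transcript start are shown for 4 of the 5 genes whose groups did not overlap, and for Vegfa, a hypoxia-responsive gene, so that the kinds of promoter can be compared. They are RefSeq sequences of mouse build GRCm38.p6, written 5′ to 3′ on the strand of the gene, 150 bases ending 1 base before the RefSeq transcript start, except for Fgfr3, where 100 bases ending 51 bases before the RefSeq start are given, up to the base before the start of the gene in GENCODE. The intervals are chr5:33721574-33721673 for Fgfr3 (plus strand), chr11:33147401-33147550 for Fgf18 (minus), chr4:148500463-148500612 for Angptl7 (minus), chr2:33215811-33215960 for Angptl2 (plus) and chr17:46032378-46032527 for Vegfa (minus), and none overlaps an exon of a protein-coding transcript in GENCODE release M21. Capitals mark GC boxes, the only one of the searched motifs found here.
Fgfr3: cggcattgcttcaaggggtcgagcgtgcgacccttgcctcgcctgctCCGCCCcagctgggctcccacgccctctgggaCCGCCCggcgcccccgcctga
Fgf18: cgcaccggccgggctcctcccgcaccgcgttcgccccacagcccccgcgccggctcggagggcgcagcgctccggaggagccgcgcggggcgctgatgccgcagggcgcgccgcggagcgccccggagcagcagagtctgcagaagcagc
Angptl7: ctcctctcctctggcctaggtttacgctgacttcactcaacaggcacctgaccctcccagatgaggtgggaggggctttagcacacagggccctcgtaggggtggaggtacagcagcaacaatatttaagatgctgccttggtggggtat
Angptl2: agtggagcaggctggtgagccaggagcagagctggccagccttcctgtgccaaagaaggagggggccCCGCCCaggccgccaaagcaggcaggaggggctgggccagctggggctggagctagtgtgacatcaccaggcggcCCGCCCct
Vegfa: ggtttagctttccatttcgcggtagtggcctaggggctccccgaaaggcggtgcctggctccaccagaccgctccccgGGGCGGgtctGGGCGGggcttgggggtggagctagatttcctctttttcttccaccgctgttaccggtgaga

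The searched motifs, on both strands, were the GC box (GGGCGG), the CCAAT box (CCAAT), the TATA box (TATAAA) and ACGTG. The last is a form of the core of the hypoxia response element, and the other form, GCGTG, was not searched. Bases farther upstream were not searched. No match in these windows overlapped another. The windows of Fgfr3, Angptl2 and Vegfa each held 2 GC boxes, and those of Fgf18 and Angptl7 held none. The share of G and C was 80.7% in the Fgf18 window, with 25 CpG dinucleotides, and 56.0% in the Angptl7 window, with 2. Among the same 150 bases of 27025 RefSeq promoters, the GC box was found in 29.0%, the CCAAT box in 25.3%, the TATA box in 8.08% and ACGTG in 11.1%. Of the 37 growth factor genes with a promoter in that table, 40.5% held a GC box, 16.2% a CCAAT box, 8.11% a TATA box and 5.41% ACGTG. A match says that these letters are present and nothing about binding.

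Of the 15 paracrine FGF ligands 4 were tested, and Fgf1 and Fgf2 were the most abundant. These are the acidic and basic FGFs, which lack a signal peptide and leave cells without the usual secretory route. Fgf1 was at 19.6, 15.3 and 18.6 FPKM in heterozygote libraries, against 19.0, 17.1 and 12.7 FPKM in wild-type libraries, with overlapping groups (17.8 ± 2.25 and 16.3 ± 3.21, SD, n = 3 each). Fgf2 had 10.9, 7.09 and 8.52 FPKM in heterozygote libraries, against 13.0, 11.5 and 9.33 FPKM in wild-type libraries; its fold change was -0.33 (SE 0.18, adjusted p 0.827 in limma's test), or -0.20 without heterozygote replicate 2. In the annotation 13.2% of the exon bases of Fgf2 also lie in exons of other genes, among them Nudt6 on the opposite strand (1.57 to 3.07 FPKM), and the library kit is not described as keeping strand. The ratio of Fgf2 to Fgf1 within a library was 0.554, 0.463 and 0.458 in heterozygotes, against 0.683, 0.677 and 0.734 in wild type, so that every heterozygote ratio lay below every wild-type ratio. The log2 difference was -0.51, and the exact two-sided permutation test gave p = 0.1, the smallest that 3 libraries against 3 can give; adjusted over the 6 ratios tested it was 0.3.

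Fgf18, a ligand that signals through Fgfr3 in growing cartilage and bone, was the paracrine ligand with the smallest p (ENSMUSG00000057967, GRCm38 chromosome 11, 33117430 to 33147400). Its level was 1.98, 1.75 and 2.35 FPKM in heterozygote libraries, against 2.54, 3.30 and 3.74 FPKM in wild-type libraries. All heterozygote values were below all wild-type values, and the gap between the nearest libraries was small beside the spread within wild type. Mean levels were 2.03 ± 0.302 FPKM in heterozygotes and 3.19 ± 0.611 FPKM in wild type (SD, n = 3 each), on 36 to 80 reads per library. The fold change was -0.46 (SE 0.14, 95% interval -0.81 to -0.12), with an unadjusted p of 0.0167 and an adjusted p of 0.637 in limma's test, so it did not pass. Heterozygote replicate 2 had little weight in this gene, since the fold change without it was -0.40. Fgf7, the keratinocyte growth factor that mesenchyme makes for epithelium, stayed between 3.74 and 4.63 FPKM in all 6 libraries.

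The other 11 paracrine ligands did not reach the level needed for the test. Fgf3, Fgf4, Fgf6 and Fgf20 were listed at 0 in all 6 libraries, which does not show that they are absent. The highest value among all untested members was 2.62 FPKM for Fgf10, a mesenchymal ligand of Fgfr2 that is known from adipose precursors, in heterozygote replicate 2, where the other 5 libraries had 0.488 to 1.15 FPKM. This was the library with the highest white adipocyte marker sum, and the part of that in the Fgf10 value was not tested. Fgf5, Fgf8, Fgf9, Fgf16, Fgf17 and Fgf22 were below 1 FPKM in every library. Among the endocrine FGFs, which circulate and need a klotho protein, Fgf21 and Fgf23 were at or below 0.173 FPKM, 3 reads or fewer.

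Fgf14, one of the intracellular FGF homologous factors that bind the tail of voltage-gated sodium channels, had the smallest p of the 33 genes (ENSMUSG00000025551, chromosome 14, 123977907 to 124677127). The 3 heterozygote libraries had 4.71, 3.78 and 4.11 FPKM, against 3.31, 2.64 and 2.93 FPKM in the wild-type libraries. Every heterozygote value was above every wild-type value, including that of heterozygote replicate 2. On average Fgf14 was at 4.20 ± 0.475 FPKM in heterozygotes and 2.96 ± 0.335 FPKM in wild type (SD, n = 3 each), and the fold change was 0.39 (SE 0.11, 95% interval 0.12 to 0.67). The unadjusted p was 0.0124 and the adjusted p 0.616 in limma's test, so the gene did not pass. In the annotation 5.26% of its exon bases are shared with Gm28932 on the opposite strand, which had 6.44, 2.43 and 3.83 FPKM in heterozygote libraries, against 4.44, 1.83 and 2.64 FPKM in wild-type libraries, and reads of the shared stretch cannot be assigned to one of them. Fgf11, of the same subfamily and with a higher mean level, was at 7.05, 6.90 and 8.15 FPKM in heterozygote libraries, against 7.80, 6.67 and 7.68 FPKM in wild-type libraries. Fgf13 was at 1.40 to 3.17 FPKM with overlapping groups, and Fgf12 was too low to be tested.

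Fgfr1 made up most of the FGF receptor transcript in every library, and Fgfr3 took a smaller share of it in heterozygotes than in wild type. Fgfr1 was at 44.7, 28.9 and 38.8 FPKM in heterozygote libraries, against 37.5, 37.4 and 35.6 FPKM in wild-type libraries. The fold change of Fgfr1 was 0.00 (95% interval -0.41 to 0.41), and leaving out single libraries moved it between -0.13 and 0.17. Fgfr2 had 11.6, 7.20 and 10.4 FPKM in heterozygote libraries, against 14.8, 11.7 and 9.45 FPKM in wild-type libraries, and the groups overlapped (fold change -0.28, or -0.09 without heterozygote replicate 2). Fgfr4 was mostly below 1 FPKM and was not tested, with 0.417, 0.114 and 0.665 FPKM in heterozygote libraries, against 0.649, 1.31 and 0.8 FPKM in wild-type libraries.

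Fgfr3, which restrains chondrocyte growth in the skeleton, had the largest negative fold change of the 33 genes (ENSMUSG00000054252, chromosome 5, 33721674 to 33737068). Its level was 11.4, 2.1 and 9.13 FPKM in heterozygote libraries, against 12.3, 18.2 and 18.3 FPKM in wild-type libraries. All heterozygote values were below the wild-type values, but heterozygote replicate 1 and wild-type replicate 1 were close and heterozygote replicate 2 was far below the rest. The means were 7.53 ± 4.84 FPKM in heterozygotes and 16.3 ± 3.44 FPKM in wild type (SD, n = 3 each), on 260 to 2389 reads. The fold change was -1.22 (SE 0.52, 95% interval -2.46 to 0.02), with an unadjusted p of 0.0528 and an adjusted p of 0.770 in limma's test. Without heterozygote replicate 2 it was -0.60 (95% interval -1.07 to -0.14), with an adjusted p of 0.312. Of its exon bases 13.9% are shared with G630022F23Rik on the opposite strand, which was at or below 0.0765 FPKM in all libraries. As a share of the summed FPKM of the 4 FGF receptors, Fgfr3 was 16.7%, 5.49% and 15.5% in heterozygote libraries, against 18.8%, 26.5% and 28.5% in wild-type libraries. The share of Fgfr1 was 65.7%, 75.4% and 65.7% in heterozygote libraries, against 57.5%, 54.5% and 55.5% in wild-type libraries. These shares within a library do not depend on the scaling between libraries, and as they were chosen after the levels had been seen, they were not tested.

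**Figure D3:**
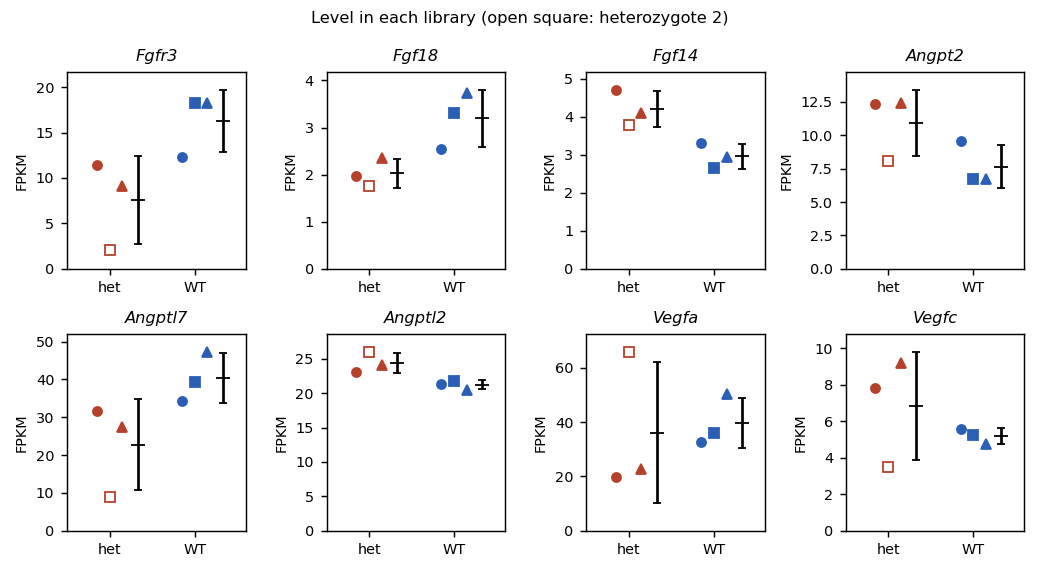
FPKM of 8 growth factor genes in each heterozygote (het, red, replicate 2 as an open square) and wild-type (WT, blue) library, with the mean and SD of 3 libraries in black. The groups do not overlap for Fgfr3, Fgf18, Fgf14, Angptl7 and Angptl2, and heterozygote replicate 2 lies far from the other heterozygote libraries for Fgfr3, Angptl7, Vegfa and Vegfc.

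Of the 10 listed FGF coreceptors and binding proteins 6 were tested, 0 were called and 3 had groups that did not overlap, 2 higher and 1 lower, where 12.9% of all tested genes had such groups. Flrt2, a transmembrane protein that binds FGF receptors, was at 4.55, 3.54 and 3.97 FPKM in heterozygote libraries, against 2.98, 2.95 and 2.87 FPKM in wild-type libraries, with a fold change of 0.35 (SE 0.10) and an adjusted p of 0.626 in limma's test. Its relative Flrt1 was lower, at 0.972, 0.75 and 0.654 FPKM in heterozygote libraries, against 1.59, 1.38 and 1.30 FPKM in wild-type libraries (fold change -0.44, SE 0.12, adjusted p 0.616). Fgfrl1, a receptor-like protein without a kinase domain, had 23.7, 27.1 and 21.4 FPKM in heterozygote libraries, against 21.3, 19.1 and 20.8 FPKM in wild-type libraries. Downstream, 13 of the 15 listed feedback genes of receptor tyrosine kinase signalling were tested, with 7 positive and 6 negative fold changes, a median of 0.12 and 0 called. Spred1 and Spred2, inhibitors of the Ras and ERK route, pointed in opposite directions: Spred1 was at 6.39, 5.71 and 6.15 FPKM in heterozygote libraries, against 7.09, 7.81 and 7.18 FPKM in wild-type libraries, and Spred2 at 10.9, 9.87 and 9.41 FPKM in heterozygote libraries, against 8.99, 9.19 and 8.70 FPKM in wild-type libraries. Neither passed, with adjusted p of 0.735 and 0.861 in limma's test. Spry1, a feedback inhibitor that FGF signalling induces, was at 5.89 to 7.80 FPKM with overlapping groups. Of the 16 adaptors tested, 0 were called and the median fold change was -0.09, the smallest p being that of Gab1, a docking protein for MET and other receptors (adjusted p 0.891 in limma's test).

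Pdgfd was the most abundant PDGF ligand, at 42.4, 21.1 and 38.1 FPKM in heterozygote libraries, against 43.3, 33.4 and 32.0 FPKM in wild-type libraries. It encodes a ligand of PDGFR-beta that is activated by proteolysis, and it made up 47.6% to 57.8% of the summed PDGF ligand FPKM in each library. Its fold change was -0.14 with all libraries and 0.16 without heterozygote replicate 2, so its direction rested on that library. Pdgfa, a ligand of PDGFR-alpha, was at 13.7, 7.44 and 13.0 FPKM in heterozygote libraries, against 17.3, 15.9 and 12.6 FPKM in wild-type libraries. Pdgfb was at 12.5, 11.9 and 12.4 FPKM in heterozygote libraries, against 13.1, 11.1 and 8.85 FPKM in wild-type libraries. Neither gene's groups were separate, and the fold change of Pdgfa was -0.42, or -0.17 without heterozygote replicate 2. Pdgfc was at 3.87 to 6.59 FPKM.

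The ratio of Pdgfa to Pdgfb did separate the groups, at 1.1, 0.625 and 1.05 in heterozygote libraries, against 1.32, 1.43 and 1.42 in wild-type libraries. The log2 difference was -0.63 with all libraries and -0.37 without heterozygote replicate 2, and the exact two-sided permutation test gave p = 0.1, the smallest possible, or 0.3 after adjustment over the 6 ratios. The annotation places 26.1% of the exon bases of Pdgfa in exons of 6330403L08Rik on the opposite strand, which was at 3.74 to 5.91 FPKM, so part of the Pdgfa value cannot be assigned.

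All 3 PDGF receptor genes had overlapping groups and positive fold changes, and 0 passed the test. Pdgfrb, which marks smooth muscle cells and pericytes, was the most abundant, with 53.3, 40.0 and 44.8 FPKM in heterozygote libraries, against 45.3, 44.0 and 36.2 FPKM in wild-type libraries (46.0 ± 6.75 and 41.9 ± 4.94, SD, n = 3 each). Pdgfra, which is typical of fibroblasts, had 17.0, 15.4 and 16.6 FPKM in heterozygote libraries, against 14.2, 15.8 and 16.4 FPKM in wild-type libraries, and a fold change of 0.07 (95% interval -0.17 to 0.31). The ratio of Pdgfra to Pdgfrb was 0.319, 0.385 and 0.370 in heterozygotes, against 0.313, 0.359 and 0.454 in wild type, with overlapping groups (exact permutation p = 1). Pdgfrl, a receptor-like protein without a kinase domain, was at 30.9, 20.1 and 35.5 FPKM in heterozygote libraries, against 21.8, 28.0 and 23.1 FPKM in wild-type libraries. Heterozygote replicate 2 was the lowest library there, and the fold change was 0.21 with it and 0.44 without it (adjusted p 0.933 and 0.305 in limma's test), and 0.044 without heterozygote replicate 3. Across the wild-type libraries the tested FGF, PDGF and HGF receptors with a kinase domain had mean levels in the order Pdgfrb, Fgfr1, Fgfr3, Pdgfra, Fgfr2 and Met. The ranges of Pdgfrb and Fgfr1 overlapped, at 36.2 to 45.3 and 35.6 to 37.5 FPKM, as did those of Fgfr3, Pdgfra and Fgfr2, which all lay between 9.45 and 18.3 FPKM.

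Vegfa was the VEGF gene whose levels were most spread between heterozygote libraries. It had 19.8, 65.9 and 22.8 FPKM in heterozygote libraries, against 32.8, 36.0 and 50.2 FPKM in wild-type libraries (ENSMUSG00000023951, chromosome 17, 46016993 to 46032369). Heterozygote replicates 1 and 3 were below all wild-type libraries and heterozygote replicate 2 was above them all. The fold change was -0.32 (95% interval -1.40 to 0.77, adjusted p 0.953 in limma's test) with all libraries and -0.85 (95% interval -1.30 to -0.39, adjusted p 0.238) without heterozygote replicate 2. Without heterozygote replicate 1 or 3 instead, it was -0.0035 or -0.10. Adipocytes make VEGF-A, and the white adipocyte marker sum was also highest in heterozygote replicate 2 and lowest in heterozygote replicate 1. The 8 white adipocyte markers all had negative fold changes without heterozygote replicate 2, with a median of -0.86, and their part in the Vegfa values was not tested. Vegfb, a ligand of the receptor Flt1 that oxidative tissues make, followed the same order within the heterozygotes, with 17.9, 39.2 and 24.5 FPKM, against 20.9, 26.2 and 27.2 FPKM in wild-type libraries. The ratio of Vegfa to Vegfb was 1.11, 1.68 and 0.932 in heterozygotes, against 1.57, 1.37 and 1.85 in wild type (log2 difference -0.40, exact permutation p = 0.3).

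The lymphatic ligand Vegfc went the other way from Vegfa in each heterozygote library. It was at 7.80, 3.5 and 9.21 FPKM in heterozygote libraries, against 5.59, 5.25 and 4.74 FPKM in wild-type libraries (6.84 ± 2.98 and 5.19 ± 0.426, SD, n = 3 each). Heterozygote replicates 1 and 3 were above all wild-type libraries and heterozygote replicate 2 below them all. Its fold change was 0.26 with all libraries (95% interval -0.46 to 0.98, adjusted p 0.940 in limma's test) and 0.62 without heterozygote replicate 2 (95% interval 0.34 to 0.89, adjusted p 0.230), but 0.13 without replicate 1 and 0.026 without replicate 3 of the heterozygote. As a share of the summed FPKM of the 4 VEGF ligands, Vegfc was 11.5%, 2.77% and 11.6% in heterozygote libraries, against 7.10%, 5.97% and 4.72% in wild-type libraries. Vegfd, the other ligand of Flt4, was more abundant and less spread, at 22.4, 17.5 and 23.0 FPKM in heterozygote libraries, against 19.3, 20.4 and 18.4 FPKM in wild-type libraries. The 6 lymphatic markers summed to 74.6, 105.9 and 108.4 FPKM in heterozygote libraries, against 67.3, 80.0 and 82.1 FPKM in wild-type libraries. Ccl21a took a large part of this sum, at 36.3, 60.1 and 62.1 FPKM in heterozygotes, against 29.0, 35.6 and 31.8 FPKM in wild type. Of the 4 lymphatic markers tested, 2 had positive and 2 negative fold changes, so they had no shared direction. Of the 14 listed proteases and cofactors that activate these ligands 8 were tested and 0 called; Furin, which cleaves the precursors of VEGF-C and PDGFs, was at 14.3, 15.5 and 15.2 FPKM in heterozygote libraries, against 16.5, 16.6 and 16.3 FPKM in wild-type libraries, and Ccbe1, a cofactor of VEGF-C cleavage, was at 2.25 to 2.99 FPKM with overlapping groups.

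Of the 9 genes listed as VEGF and TIE receptors and partners, all were tested, 7 had negative and 2 positive fold changes, and 0 were called; the median was -0.41 with all libraries and -0.28 without heterozygote replicate 2. Of the 9, 1 had groups that did not overlap, where 12.9% of all tested genes had such groups. This was Nrp1, a coreceptor of VEGF-A, with 12.6, 11.5 and 11.5 FPKM in heterozygote libraries, against 15.6, 14.1 and 14.8 FPKM in wild-type libraries. Its fold change was -0.30 (SE 0.09, unadjusted p 0.0157, adjusted p 0.637 in limma's test), and without heterozygote replicate 2 it was -0.28. Flt1, a receptor that can act as a decoy for VEGF-A, was at 4.87, 6.81 and 4.14 FPKM in heterozygote libraries, against 6.39, 7.39 and 7.87 FPKM in wild-type libraries. The fold change of Flt1 was -0.41 (adjusted p 0.770 in limma's test), and with array quality weights it was -0.64 with an adjusted p of 0.0398. Pgf, the placental growth factor that binds Flt1, had 3.70, 2.09 and 2.62 FPKM in heterozygote libraries, against 3.51, 4.37 and 4.17 FPKM in wild-type libraries (unadjusted p 0.0481, adjusted p 0.765 in limma's test). Flt4 was at 4.46, 6.55 and 6.03 FPKM in heterozygote libraries, against 4.09, 4.89 and 4.96 FPKM in wild-type libraries.

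Kdr, the main signalling receptor for VEGF-A, was 14.6 FPKM in heterozygote replicate 2 and 3.43 and 3.95 FPKM in heterozygote replicates 1 and 3, against 4.82, 5.30 and 5.42 FPKM in wild-type libraries. Its fold change was 0.18 with all libraries and -0.40 without heterozygote replicate 2. Nrp2, the coreceptor for VEGF-C, had 2.69, 6.66 and 2.63 FPKM in heterozygote libraries, against 3.89, 4.19 and 4.37 FPKM in wild-type libraries. Heterozygote replicate 2 was thus the highest library for Kdr and Nrp2 and, as given next, the lowest for Tek, Tie1 and Ptprb, while its endothelial marker sum was also the lowest. The ratio of Flt1 to Kdr was 1.42, 0.468 and 1.05 in heterozygotes, against 1.33, 1.39 and 1.45 in wild type (log2 difference -0.65, or -0.19 without heterozygote replicate 2; exact permutation p = 0.3).

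**Figure D4:**
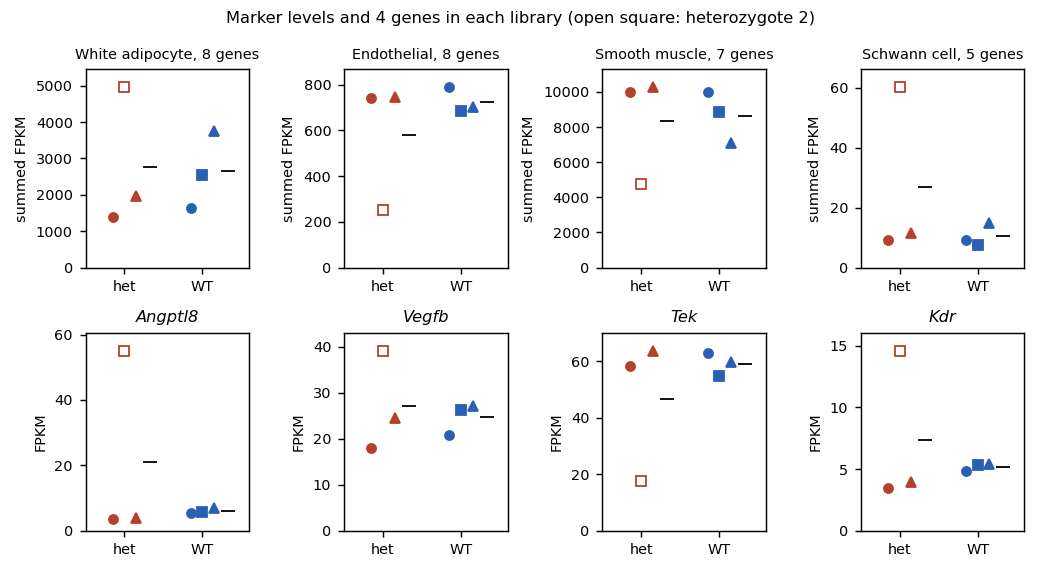
Summed FPKM of marker genes of 4 cell types (top) and FPKM of Angptl8, Vegfb, Tek and Kdr (bottom) in each heterozygote (het, red, replicate 2 as an open square) and wild-type (WT, blue) library; black bars are means of 3 libraries. Heterozygote replicate 2 has the highest white adipocyte sum, 4954.0 FPKM, and the lowest endothelial sum, 249.4 FPKM, and it is the highest library for Angptl8, Vegfb and Kdr and the lowest for Tek.

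Genes of the hypoxia response, which also induces Vegfa, and genes known to be induced by VEGF in endothelium were counted beside the ligands, and neither list held a called gene. Of the 16 listed hypoxia-related genes 15 were tested, with 3 positive and 12 negative fold changes, a median of -0.10, and 3 whose heterozygote values all lay below wild type, as 5.12% of all tested genes did. Epas1, which encodes HIF-2 alpha, was at 166.8, 84.6 and 149.4 FPKM in heterozygote libraries, against 191.4, 179.6 and 176.6 FPKM in wild-type libraries, without overlap (fold change -0.50, or -0.21 without heterozygote replicate 2). P4ha1, a collagen prolyl hydroxylase subunit, had 37.3, 16.9 and 48.6 FPKM in heterozygote libraries, against 46.0, 65.6 and 75.5 FPKM in wild-type libraries (-0.94, or -0.51 without that library), and Adm, the vasodilator adrenomedullin, had the opposite sign (fold change 0.51, adjusted p 0.828 in limma's test). The listed genes did not move together in heterozygote replicate 2. Epas1 and P4ha1 were lowest there, while Ldha and Pgk1 were highest, as Vegfa was. Ldha had 274.1 FPKM in that library and 68.9 to 177.0 FPKM in the others, and Pgk1 126.5 against 44.1 to 85.6 FPKM. All 8 VEGF-induced genes were tested, 6 with negative and 2 with positive fold changes. Cxcr4, a chemokine receptor gene, was positive, at 1.91, 9.60 and 4.06 FPKM in heterozygotes, against 2.84, 1.90 and 1.29 FPKM in wild type. Its fold change was 0.87 (adjusted p 0.824 in limma's test), or 0.38 without heterozygote replicate 2. Nos3, the endothelial nitric oxide synthase, was at 40.8, 11.8 and 39.2 FPKM in heterozygote libraries, against 47.0, 66.5 and 62.5 FPKM in wild-type libraries, with a fold change of -1.09, or -0.53 without heterozygote replicate 2 (adjusted p 0.770 in limma's test with all libraries). Esm1, a proteoglycan of endothelial tip cells, was at 4.20, 2.35 and 4.91 FPKM in heterozygote libraries, against 4.72, 6.62 and 7.97 FPKM in wild-type libraries. The endothelial marker sum was lowest in heterozygote replicate 2 as well, and its part in these values was not tested.

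Among the angiopoietins, Angpt2 was higher in heterozygotes on average and Angpt1 lower, and neither passed the test with all libraries weighted alike. Angpt2, which endothelium stores and releases on activation, had 12.3, 8.06 and 12.4 FPKM in heterozygote libraries, against 9.53, 6.74 and 6.70 FPKM in wild-type libraries (ENSMUSG00000031465, chromosome 8, 18690263 to 18741562). The groups overlapped only through heterozygote replicate 2, which lay between wild-type replicates 1 and 2. The means were 10.9 ± 2.49 FPKM in heterozygotes and 7.66 ± 1.63 FPKM in wild type (SD, n = 3 each), and the fold change was 0.46 (SE 0.20, 95% interval -0.04 to 0.95, adjusted p 0.774 in limma's test). Without heterozygote replicate 2 it was 0.64 with an adjusted p of 0.258, and with array quality weights 0.71 with an adjusted p of 0.0449. Angpt1, the agonist that mural cells make, was at 1.39, 1.81 and 1.52 FPKM in heterozygote libraries, against 1.98, 1.75 and 2.27 FPKM in wild-type libraries. Of its exon bases 14.2% are shared with Gm17473 on the opposite strand, which was at or below 0.0249 FPKM in all libraries. The ratio of Angpt2 to Angpt1 was 8.83, 4.46 and 8.20 in heterozygotes, against 4.82, 3.85 and 2.95 in wild type; the log2 difference was 0.85, and the exact two-sided permutation test gave p = 0.2, or 0.36 after adjustment over the 6 ratios. Angpt4, an agonist of TIE2, had 11.2, 6.42 and 13.1 FPKM in heterozygote libraries, against 8.88, 9.35 and 7.94 FPKM in wild-type libraries.

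The TIE receptors were among the more abundant receptor transcripts. Tek had 58.2, 17.6 and 63.7 FPKM in heterozygote libraries, against 62.7, 54.6 and 59.5 FPKM in wild-type libraries. Tie1, its partner without a known ligand of its own, had 74.0, 32.4 and 76.9 FPKM in heterozygote libraries, against 78.8, 83.2 and 72.7 FPKM in wild-type libraries. Ptprb, the phosphatase that keeps TIE2 inactive, was at 55.0, 15.5 and 45.1 FPKM in heterozygote libraries, against 58.2, 43.7 and 48.0 FPKM in wild-type libraries. For all 3 genes heterozygote replicate 2 was far below the other 5 libraries. Fold changes were -0.53 for Tek, -0.45 for Tie1 and -0.53 for Ptprb with all libraries, and 0.05, -0.05 and 0.00 without that library.

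**Figure D5:**
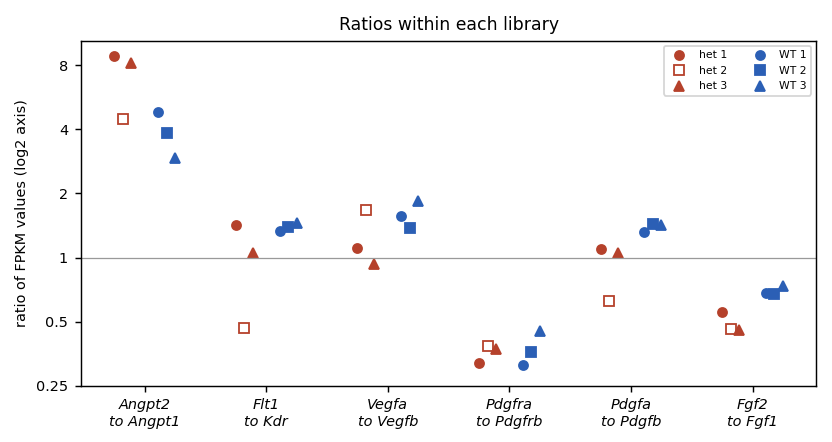
Ratio of the FPKM values of 2 genes within each library, on a log2 axis, for the 6 ratios tested; red symbols are heterozygote (het) libraries, with replicate 2 open, and blue symbols are wild-type (WT) libraries. The groups are separate for Pdgfa to Pdgfb and for Fgf2 to Fgf1, each lower in all 3 heterozygote libraries.

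Angptl7, a secreted protein best known from the eye, was among the more abundant angiopoietin-like genes and had groups without overlap (ENSMUSG00000028989, chromosome 4, 148495183 to 148500460). Its level was 31.6, 9.01 and 27.5 FPKM in heterozygote libraries, against 34.4, 39.4 and 47.3 FPKM in wild-type libraries. Heterozygote replicate 1 and wild-type replicate 1 were close to each other and heterozygote replicate 2 was far below the rest. The means were 22.7 ± 12.0 FPKM in heterozygotes and 40.4 ± 6.53 FPKM in wild type (SD, n = 3 each). The fold change was -0.96 (SE 0.44, 95% interval -2.03 to 0.10, adjusted p 0.783 in limma's test) with all libraries and -0.43 (95% interval -0.79 to -0.06, adjusted p 0.329) without heterozygote replicate 2.

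Angptl2, a glycoprotein that adipose tissue and vessels secrete and that promotes inflammation, was higher in every heterozygote library, by a small margin (ENSMUSG00000004105, chromosome 2, 33216069 to 33247717). It was at 23.1, 26.0 and 24.1 FPKM in heterozygote libraries, against 21.3, 21.8 and 20.5 FPKM in wild-type libraries. The means were 24.4 ± 1.49 FPKM in heterozygotes and 21.2 ± 0.659 FPKM in wild type (SD, n = 3 each), on 2318 to 2827 reads per library. The fold change was 0.19 (SE 0.10, 95% interval -0.04 to 0.43, adjusted p 0.807 in limma's test), and 0.15 without heterozygote replicate 2.

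The angiopoietin-like inhibitors of lipoprotein lipase did not pass the test. Angptl4, which fasting and PPAR ligands induce, was at 19.8, 14.6 and 20.5 FPKM in heterozygote libraries, against 19.8, 26.0 and 47.3 FPKM in wild-type libraries. Wild-type replicate 3 was far above the other 5 libraries, and the fold change was -0.65 (95% interval -1.41 to 0.11, adjusted p 0.804 in limma's test), or -0.31 without that library. Angptl8, which feeding induces in liver and fat, was at 55.1 FPKM in heterozygote replicate 2 and at 3.55 and 3.99 FPKM in heterozygote replicates 1 and 3, against 5.50, 5.66 and 7.06 FPKM in wild-type libraries. Its fold change was 0.62 (95% interval -1.64 to 2.88) with all libraries. Without heterozygote replicate 2 it was -0.56 (95% interval -0.87 to -0.26, adjusted p 0.244 in limma's test). That library also had the highest white adipocyte marker sum, 4954.0 FPKM. In wild-type replicate 3, where Angptl8 was at 7.06 FPKM, the sum was 3750.1 FPKM. The part of adipocyte content in the Angptl8 values was not tested. Angptl1 and Angptl6 were at 0.934 to 2.05 FPKM with overlapping groups, and both values are uncertain. Of the exon bases of Angptl6, 16.8% lie in exons of A230050P20Rik on the opposite strand, which was at 5.46 to 8.91 FPKM. Of those of Angptl1, 16.4% lie in exons of Gm37802 on the opposite strand.

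The enzyme these proteins act on and the genes of fatty acid use that PPARs control also held no called gene, with all 10 tested, 7 negative, and a median of -0.41, or -1.05 without heterozygote replicate 2. Lpl, lipoprotein lipase, was at 46.3, 196.8 and 64.3 FPKM in heterozygote libraries, against 64.2, 151.5 and 160.7 FPKM in wild-type libraries. Pdk4, a kinase that shuts off pyruvate oxidation, had 22.0, 41.7 and 25.2 FPKM in heterozygote libraries, against 35.1, 65.2 and 77.2 FPKM in wild-type libraries (fold change -0.95, unadjusted p 0.0334, adjusted p 0.731 in limma's test, or -1.26 and 0.0456 with array quality weights). Cpt1a, the entry step of mitochondrial fatty acid oxidation, had the opposite sign (0.25, adjusted p 0.924). The brown adipocyte marker sum (6 genes, Ucp1 among them) was 76.4, 1238.1 and 286.5 FPKM in heterozygote libraries, against 229.2, 1013.9 and 809.7 FPKM in wild-type libraries, and its part in these values was not tested.

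Hgf, a mesenchymal ligand, was at 0.182 to 0.443 FPKM and too low to be tested. Its receptor gene Met was at 1.53, 3.30 and 1.53 FPKM in heterozygote libraries, against 1.98, 2.71 and 3.07 FPKM in wild-type libraries. Heterozygote replicates 1 and 3 were below all wild-type libraries and heterozygote replicate 2 above them, and the fold change was -0.24 with all libraries and -0.49 without heterozygote replicate 2 (adjusted p 0.927 and 0.309 in limma's test), but -0.11 without heterozygote replicate 1 or 3. The name rule also took in 3 genes that are neither growth factors nor their receptors. Fgfr1op and Fgfr1op2, named as partners of Fgfr1 in human leukaemia fusions, were at 2.35 to 3.49 FPKM and 18.0 to 22.2 FPKM with overlapping groups, and Fgf2os, listed as an antisense gene of Fgf2, was at or below 0.190 FPKM.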

How the data were processed

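RNA of whole aorta was sequenced in 6 libraries, 3 heterozygote and 3 wild type, with groups and replicate numbers taken from the sample titles. The numbers in the file headers of the heterozygote libraries differ from the titles; the group is the same under both. The deposited values are of the FPKM type, calculated by the authors as reads scaled by gene length and library total; the sources do not say whether reads or fragments were counted, and FPKM is used as its name. Per the labels' protocols, mRNA was selected on poly-T beads and primed with random hexamers, which does not keep strand by itself. Per the submitters' processing notes, the build was GRCm38 and the tools were TopHat2, Bowtie2 2.2.3 and HISAT2 2.1.0, with no roles stated; counter and annotation: not given in the sources used here. With exon lengths of GENCODE release M21, 95.0% to 95.5% of low values (up to 20 reads) were whole reads within 0.01.

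The 12620 genes that reached 1 FPKM in 3 or more libraries were tested with limma 3.58.1 in R 4.3.3, with a mean-variance trend, on log2(FPKM + 1), a scale that understates the fold of low genes. Adjustment was Benjamini-Hochberg over all genes tested, with a threshold of 0.05. For ratios of 2 genes, an exact permutation test over libraries was used, two-sided. The procedure was run on simulated data in which every gene varied independently. No simulated library was unlike the rest as heterozygote replicate 2 was, so the simulation does not show how the fit handles such a library. Alternatives were a pseudocount of 0.1, no filter, upper quartile scaling, no trend, array quality weights, a replicate block, leaving out each library, and voom on recovered reads, the last chosen after seeing the data, as was the count at an unadjusted p. Other software was pandas 2.3.3, numpy 2.4.6 and matplotlib 3.10.9 under Python 3.11.15.

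Values per library are given for tested genes with separate groups or an unadjusted p under 0.05, the most abundant gene of each role and every tested receptor, and for other genes whose result rests on 1 library; of each pathway list, genes among the 4 with the smallest p, and all VEGF and TIE receptors. Some markers and pathway genes were added to show where a list or a sum was not uniform. The genes, lists and markers were chosen with earlier results of these data known. Promoters matched 37 of the 51 genes by symbol. The values of 1 untested gene are not reported here. Intervals cover the spread between libraries; counting error is small for genes with many reads.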

Additional observations from a re-analysis of the deposited data

How the results depend on the processing

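With 13 alternative settings, 785 of 819 fold changes of the named genes kept their direction and side of the threshold, 3 passed the threshold with array quality weights alone (Angpt2, Flt1 at -0.64 with an adjusted p of 0.0398 and Pdk4 at -1.26 with 0.0456 in limma's test) and 31 changed sign; of the 33 growth factor genes 24 never changed sign, and 5 did so without heterozygote replicate 2. Array quality weights called 232 genes in place of 0, 1 growth factor gene in place of 0 (Angpt2), and 13 growth factor genes at an unadjusted p under 0.05 in place of 2, while the share of all tested genes at that p was 26.4% in place of 6.50%. With these weights the sign changed for Fgf11 (0.15), Pdgfd (0.13), Vegfb (-0.10), Angptl8 (-0.36), Fgfr1op2 (0.0089), Kdr (-0.30) and Tek (0.075). Fgf11, whose fold change is near 0, was also at 0.007 with upper quartile scaling and at 0.0031 with voom on recovered reads, which called 0 genes and had 851 at an unadjusted p under 0.05, against 820 in the limma test on FPKM. The cause was not tested.

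Leaving out 1 library at a time called 0 to 1 genes (Zbtb16, Nr1d1, Gm17720 or Trbd1, named for these calls, and no growth factor gene) and gave 0 to 12 growth factor genes at an unadjusted p under 0.05, the lowest without wild type replicate 2 and the highest without heterozygote replicate 2. It gave 2 to 9 growth factor genes higher without overlap (9 without heterozygote replicate 2, 4 without wild type replicate 1) and 4 to 7 lower without overlap (7 without heterozygote replicate 2 or wild type replicate 3), while 10.5% to 20.7% of all tested genes were then higher and 7.79% to 12.8% lower without overlap. Fold changes that changed sign then ranged from -0.030 to 0.43 for Angpt4, -0.56 to 1.25 for Angptl8, -0.019 to 0.25 for Fgf1, -0.069 to 0.037 for Fgf11, -0.13 to 0.17 for Fgfr1, -0.052 to 0.14 for Fgfr1op, -0.40 to 0.51 for Kdr, -0.61 to 0.33 for Klb (a klotho coreceptor of FGFs), -0.49 to 0.047 for Nrp2, -0.33 to 0.16 for Pdgfd, -0.87 to 0.0044 for Ptprb, -0.85 to 0.050 for Tek and -0.22 to 0.32 for Vegfb. The log2 difference of the Pdgfra to Pdgfrb ratio ranged from -0.18 to 0.089.

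Deviations of same-numbered libraries correlated at 0.51 for number 1 but at -0.09 and -0.34 for numbers 2 and 3, and at -0.47, 0.14 and -0.54 under the numbers in the file headers, so neither numbering was taken to pair the libraries; with the replicate block 0 genes were called, 738 had an unadjusted p under 0.05, and 3 of these were growth factor genes. Precision is limited by 3 libraries per group, with 1 heterozygote library unlike the rest, and for Fgf18 by 36 to 80 reads per library.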
